A study of Mus musculus with 6 samples.

Results

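The interferon response and antigen-presentation genes described here are the protein-coding genes of the mouse heart whose symbols begin with H2-, Ifi, Isg, Oas, Gbp, Irf or Stat (the last 3 followed by a digit), together with Tap1, Tap2, Tapbp, Tapbpl and B2m. They number 121 of the 56748 genes in the count table, which lists 21970 protein-coding genes, and 41 of them lie on chromosome 17. The name rule also took in Irf2bp1, Irf2bp2, Irf2bpl, Isg20l2 and H2-Ke6, which carry such a symbol but are not interferon factors, interferon effectors or histocompatibility chains. The rule used symbols and gene type and not the measured values, although it was set with earlier results of these data known.

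Hearts of 3 Pontin cTG and 3 WT male mice on a C57Bl/6 background, 10 weeks old when the infusion began, were each sequenced as a separate RNA-seq library. Pontin cTG mice carried a flag-tagged human Pontin cDNA driven by the α-MHC promoter, which is active in cardiomyocytes, and the WT mice were littermates without the transgene. Mice of both groups received Ang-II (angiotensin II, a pressor hormone that enlarges the heart) at 1.5 mg/kg/day for 14 days from mini-osmotic pumps, so that every difference below is one between genotypes under Ang-II. The comparison asks which transcripts differed with the cardiomyocyte transgene in the stressed heart.

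Interferons are secreted proteins that bind receptors on most cells. Their receptors act through Janus kinases on STAT proteins, which enter the nucleus together with or alongside interferon regulatory factors (IRFs) and switch on antiviral effectors and the antigen-presentation machinery. MHC class I molecules, a heavy chain paired with beta-2 microglobulin, display peptides from the cell interior on nearly all nucleated cells. MHC class II molecules display peptides from ingested material and are found in the heart mainly on resident macrophages and dendritic cells.

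To show the DNA that interferon-activated factors read in front of these genes, promoter windows from RefSeq (GRCm38.p6, 250 bases before to 50 bases after a gene start) were searched on both strands for 3 short motifs. GAAANNGAAA is the core of the interferon-stimulated response element, GAANNGAAAC is the spacing found in the class I promoters, and TTCNNNGAA is the gamma-activated site bound by STAT dimers, which reads the same on both strands. Windows were found for 96 of the 121 genes. The stretches below belong to the class I genes on which the results turn and to B2m and Irf1, each 5′ to 3′ on the strand of the gene, with the motif (or its reverse complement) in capitals:
H2-K1 (chr17:34000414-34000453, - strand): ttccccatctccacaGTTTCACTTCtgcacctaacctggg
H2-D1 (chr17:35262928-35262967, + strand): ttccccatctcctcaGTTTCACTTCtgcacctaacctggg
H2-Q4 (chr17:35379448-35379487, + strand): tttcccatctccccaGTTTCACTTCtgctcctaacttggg
H2-Q7 (chr17:35439026-35439065, + strand): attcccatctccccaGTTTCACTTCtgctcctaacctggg
B2m (chr2:122147533-122147572, + strand): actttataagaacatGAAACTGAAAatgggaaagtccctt
Irf1 (chr11:53769909-53769948, + strand): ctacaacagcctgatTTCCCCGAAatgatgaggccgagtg
The H2-K1 and H2-D1 stretches were the same at 39 of 40 bases. Those of H2-Q4 and H2-Q7 each matched the H2-K1 stretch at 36 of 40. H2-Q6 and H2-M3, not shown, also held the motif and matched it at 38 and 16 of 40. Their groups overlapped, with log2 fold changes of 0.39 ± 0.47 and 0.098 ± 0.32 (SE). GAANNGAAAC occurred in 7 of 12 windows of the tested class I pathway genes (58.3%), against 1.73% of all 32851 promoter windows. The motif was picked as the spacing of class I promoters, so this share is description and supports no result. Within that pathway only windows of heavy chain genes held it. The 12 windows belong to 11 genes, and overlapping windows of H2-K1 hold the same site. No window of the tested class II genes held any of the 3 motifs (0 of 6 windows). Over all promoter windows the shares of the 3, in the order given above, were 3.44%, 1.73% and 8.3%. At such shares 6 windows are too few to show a difference.

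Windows of the antiviral effector families held the other spacing, GAAANNGAAA, more often than GAANNGAAAC, which occurred in 6 of 43 (14%). GAAANNGAAA also occurred in 3 of 12 windows of the class I pathway (25%). A second set of stretches shows it in 3 effectors of different families and in 3 Ifi200 genes of the chromosome 1 cluster, again with the motif in capitals:
Gbp2 (chr3:142620589-142620628, + strand): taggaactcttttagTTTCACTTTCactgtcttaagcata
Ifit1 (chr19:34640770-34640809, + strand): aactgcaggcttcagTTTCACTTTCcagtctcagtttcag
Isg15 (chr4:156200866-156200905, - strand): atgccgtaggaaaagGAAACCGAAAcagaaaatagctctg
Ifi206 (chr1:173491334-173491373, - strand): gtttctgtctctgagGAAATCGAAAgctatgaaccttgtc
Ifi207 (chr1:173741826-173741865, - strand): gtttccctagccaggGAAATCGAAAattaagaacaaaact
Ifi211 (chr1:173913059-173913098, - strand): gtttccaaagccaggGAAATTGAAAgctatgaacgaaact
GAAANNGAAA occurred in 23 of 43 windows of tested effector genes (53.5%) and in 28 of 82 windows of all tested members (34.1%). Its share of all promoter windows was 3.44%. The motif was picked as the core of the interferon-stimulated response element, so these shares too are description. Among the Ifi200 genes, 7 of 9 windows held it (77.8%), with the letters GAAATCGAAA in 5 genes and GAAATTGAAA in 2. TTCNNNGAA occurred in 12 of 82 windows of tested members (14.6%), against 8.3% of all windows. Both interferon spacings were present in 5 windows, and binding of a factor was not measured in these hearts.

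Libraries held 12436822 to 13194038 counts in WT and 14584102 to 16888124 in Pontin cTG hearts, and mitochondrial transcripts took 23.8% to 26.7% of each. Pontin cTG replicate 2 stood apart: on the first principal component, which held 48.6% of the variance, it lay at 50.9, with WT replicate 2 at 16.2 and the other 4 libraries between -23.1 and -12.9. Cardiomyocyte markers identified the tissue (Myh6, Tnnt2, Actc1 and Ttn summed to between 452821 and 636473 normalised counts), while of 5 T cell, 4 NK cell and 4 B cell markers only Cd4 and Cd79b passed the filter on low counts. Ruvbl1, the mouse gene of Pontin, stood at 216, 221 and 217 normalised counts in WT and 249.9, 250.02 and 239.95 in Pontin cTG hearts (log2 fold change 0.18 ± 0.12 (SE)), and reads of the human transgene need not align to it. Normalised counts here are counts scaled to a common library size by the TMM method of edgeR.

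Of the 121 genes, 82 had enough counts to be tested, 17 had no count in any library and 22 had too few. No tested member passed the filter through a single group, since none had under 10 counts in every library of either group, and 76 of the 82 had at least 10 counts in all 6 libraries. No member passed an adjusted p of 0.05 in edgeR's quasi-likelihood test, where the background over all 13888 tested genes was 0%. The smallest adjusted p of a member was 0.9992. DESeq2 called 0 members as well (background 0.0039%, 1 gene). At an unadjusted p under 0.05, edgeR listed 3 members, H2-Q4, H2-Q7 and H2-K1, all higher in Pontin cTG hearts (background 1.02%), and 0 lower members (background 1.03%, and 2.05% in either direction). DESeq2 added H2-D1 to these 3 (background 0.433% for higher genes). In edgeR without Pontin cTG replicate 1, the count was 11 higher and 1 lower. The background there was 4.48% in either direction and was not computed for higher genes alone. In edgeR without Pontin cTG replicate 2, the count was 3 higher and 2 lower (background 2.05% for higher genes and 4.91% in either direction).

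A log2 fold change above 0 was found for 56 of the 82 tested members (background 50.2%), and their median was 0.12, against 0.0013 for all tested genes. Without Pontin cTG replicate 2, 36 of 83 tested members lay above 0 (background 48.8%) and the median over the 82 was -0.056. Without WT replicate 2, 63 of 83 lay above 0 (background 51.4%) with a median over the 82 of 0.20, and without replicate 2 of both groups, a setting added after seeing the data, 48 of 83 did (background 50.5%) with a median over the 82 of 0.040. Pontin cTG replicate 2 was the highest of the 6 libraries for 44 of the 82 members (background 30.2%), and WT replicate 2 for 17 (background 16.8%). The role groups differed in their medians, from -0.30 for the Ifi200 genes to 0.39 for the class Ib heavy chains.

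**Figure D1:**
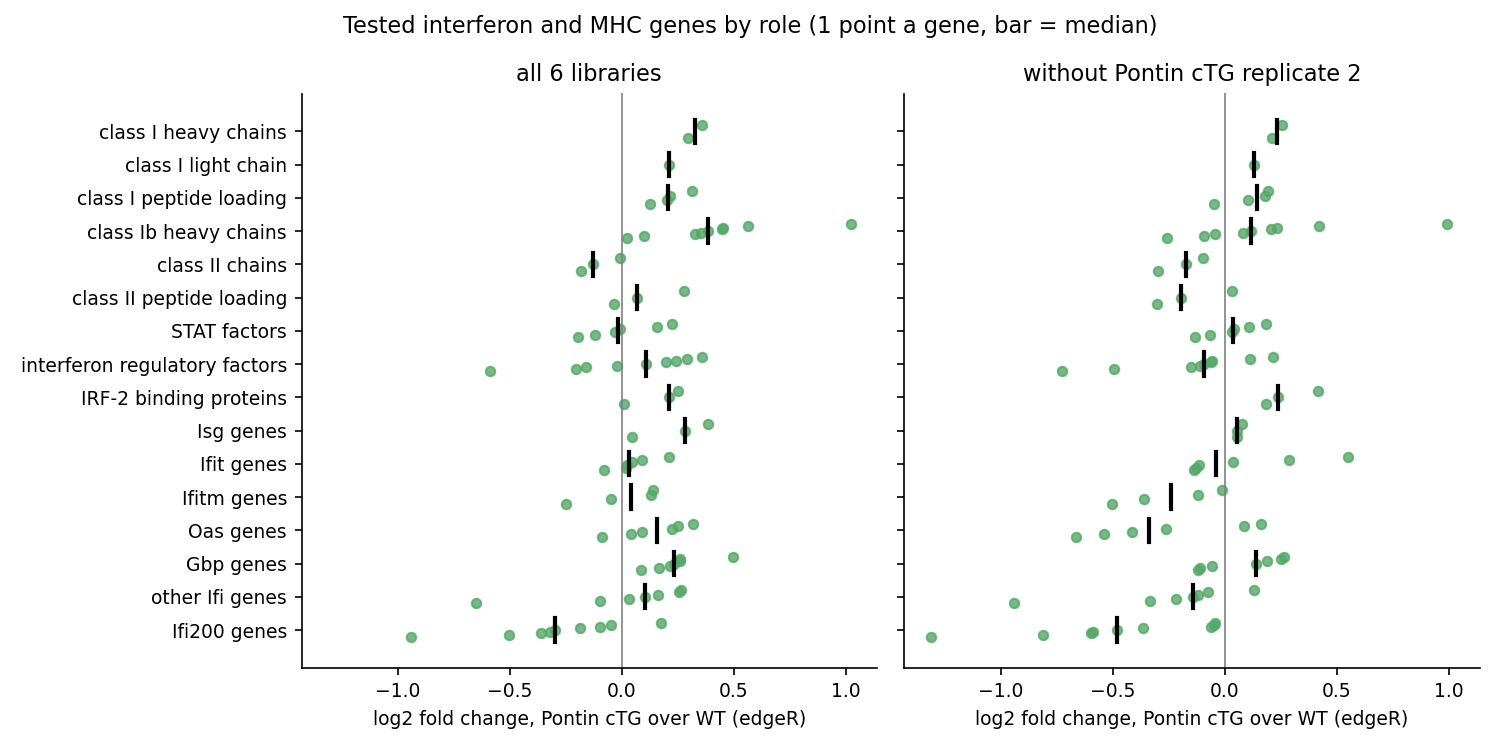
Log2 fold change of Pontin cTG over WT hearts (edgeR) on the x axis for each tested member, by role group on the y axis, with all 6 libraries (left) and without Pontin cTG replicate 2 (right); a point is a gene and a bar is the group median. The 16 genes of the 4 class I groups all lie above 0 on the left and 12 of them on the right, while the Oas median moves from 0.16 to -0.34.

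The 3 members with the smallest p-values, H2-Q4, H2-Q7 and H2-K1, were class I or class Ib heavy chains. H2-K1 (ENSMUSG00000061232, chr17:34214991-34219321 in the table's coordinates, GRCm39 by the submitters' notes), a classical heavy chain, had 1930.4, 2215 and 2384 normalised counts in WT hearts and 2421, 3180.1 and 2778 in Pontin cTG hearts (values are always given in the order of the replicate numbers). The groups did not overlap, although the highest WT and the lowest Pontin cTG heart lay close together. Its mean was 2177 ± 229 (SD, n = 3) in WT and 2793 ± 379.6 in Pontin cTG hearts. The log2 fold change was 0.36 ± 0.16 (SE), with an unadjusted edgeR p of 0.0473. H2-D1 (ENSMUSG00000073411, chr17:35481706-35486475), the other classical heavy chain of this strain, had 2499, 2491 and 2780.1 normalised counts in WT and 2909, 3553 and 3085 in Pontin cTG hearts. Again every Pontin cTG heart lay above every WT heart, with replicate 2 the highest (log2 fold change 0.30 ± 0.14 (SE), unadjusted edgeR p 0.0656). Groups without overlap were found for 5 of the 82 tested members in this direction (background 4.7%) and 0 in the other (background 3.63%). These 5 were H2-K1, H2-D1, H2-Q4, H2-Q7 and Tapbp. For each the exact two-sided permutation p was 0.1, the smallest that 3 against 3 hearts can give.

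B2m, which encodes beta-2 microglobulin, was the member with the highest level per length, 4433 normalised counts per kb, before Ifitm3 at 1543, H2-D1 at 1119, H2-K1 at 846 and Ifitm2 at 554. Its normalised counts (chr2:121978167-121983564) were 3442, 3694 and 3459.8 in WT and 3652, 4547 and 4078 in Pontin cTG hearts. Pontin cTG replicate 1 fell within the WT range, so the groups overlapped (log2 fold change 0.21 ± 0.14 (SE)). In bulk hearts, a different number of cells of a type and a different amount of RNA per cell cannot be told apart, which applies to each value given here.

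Among the class Ib heavy chains, nonclassical relatives with narrower tissue use, 9 of 25 were tested and 11 had no count in any library. All 9 had a log2 fold change above 0, with a median of 0.39, and without Pontin cTG replicate 2 the median was 0.12 with 6 of 9 above 0. H2-Q4 (chr17:35598593-35604266) had 344, 331 and 400.2 normalised counts in WT and 440.3, 628 and 517 in Pontin cTG hearts. Its groups did not overlap, the means were 358 ± 36.9 and 528 ± 94.1 (SD, n = 3), and the log2 fold change was 0.56 ± 0.16 (SE). Its unadjusted edgeR p of 0.00669 ranked 16 among all 13888 tested genes. H2-Q7 (chr17:35658131-35662749), which encodes a Qa-2 antigen, was a low-count gene with 24, 25 and 25 raw counts in WT and 40, 68 and 81 in Pontin cTG libraries. On the normalised scale these were 26.4, 28.04 and 27.9 against 39.1, 58.2 and 70.2, with the largest log2 fold change of the members, 1.02 ± 0.30 (SE), and an unadjusted edgeR p of 0.0073 (rank 19). Both genes kept an unadjusted p under 0.05 under each of the 14 alternative settings run. For H2-Q7, 11.98% of its transcript positions shared a 100-base stretch with another gene, against 2.16% for H2-Q4 and 0.957% for H2-K1, so that reads of the Q genes can be split or lost among copies.

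H2-T23, which encodes the Qa-1 heavy chain read by natural killer receptors, had 282, 323 and 341 normalised counts in WT and 322, 459.8 and 405 in Pontin cTG hearts. Its Pontin cTG replicate 1 lay inside the WT range, and the other transgenic hearts lay above it (log2 fold change 0.33 ± 0.16 (SE)). The remaining class Ib genes had log2 fold changes from 0.022 (H2-T24) to 0.45 (H2-T10).

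**Figure D2:**
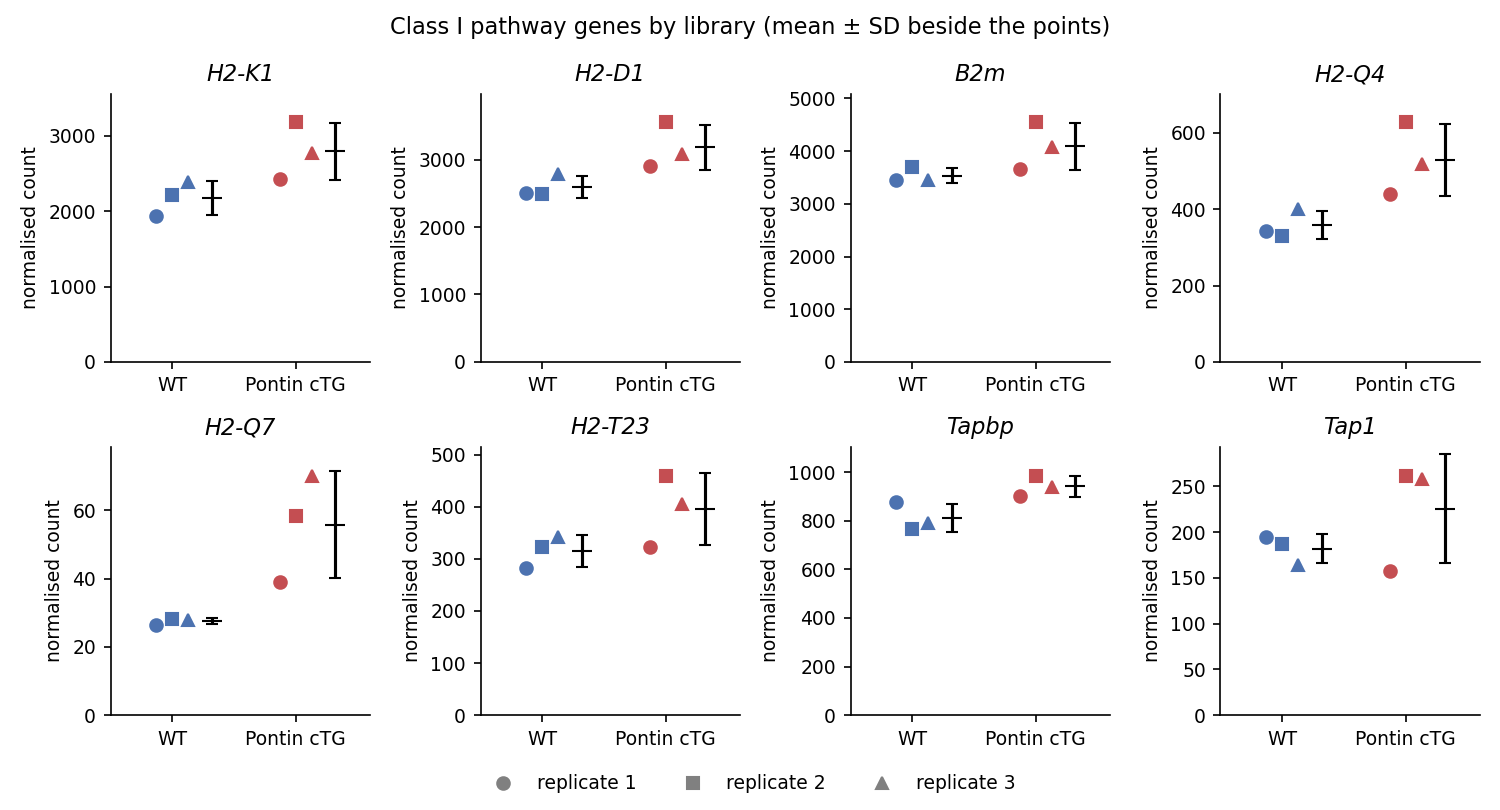
Normalised counts (y axis, from 0) of 8 class I pathway genes in each WT and Pontin cTG heart (x axis), with marker shapes for replicates 1 to 3 and the mean ± SD (n = 3) beside the points. H2-K1, H2-D1, H2-Q4, H2-Q7 and Tapbp have every Pontin cTG heart above every WT heart, while B2m, H2-T23 and Tap1 overlap, and replicate 2 is the highest Pontin cTG heart in all panels but that of H2-Q7.

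The peptide-loading genes supply class I molecules with peptides. Tapbp, which encodes tapasin, the bridge between heavy chain and transporter, had 878, 765 and 793 normalised counts in WT and 901, 986 and 939.9 in Pontin cTG hearts. The gap between the groups was narrow, since WT replicate 1 came close to Pontin cTG replicate 1 (log2 fold change 0.22 ± 0.12 (SE)). Tap1, a subunit of the peptide transporter, stood at 195, 187 and 164 against 157, 262 and 258. Here Pontin cTG replicate 1 was the lowest of all 6 hearts and the other 2 transgenic hearts the highest (log2 fold change 0.31 ± 0.21 (SE)). Tap2, the partner subunit, stood at 252, 262 and 305 against 268, 365 and 261, with overlapping groups and a log2 fold change of 0.12 ± 0.17 that was -0.049 without Pontin cTG replicate 2. Over the 16 tested genes of the class I pathway, all 16 log2 fold changes were above 0 with a median of 0.32, and without Pontin cTG replicate 2 they were above 0 for 12 with a median of 0.16.

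Of 11 further genes of the class I pathway that the name rule leaves out (immunoproteasome subunits, trimming and folding partners), 0 passed the adjusted test. An unadjusted edgeR p under 0.05 was found for 1, higher in Pontin cTG hearts (background 1.02% for higher genes). This was Psme2, a subunit of the proteasome activator, at 265, 264 and 234 normalised counts in WT and 313, 429.8 and 369 in Pontin cTG hearts. Its groups did not overlap (log2 fold change 0.54 ± 0.15 (SE)), but its copy Psme2b, listed with it, stood at 217, 224 and 227 against 178, 233 and 228, and reads of the pair may be divided between them. The interferon-inducible proteasome subunits Psmb8 and Psmb9 had log2 fold changes of 0.55 ± 0.25 and 0.48 ± 0.26, and Nlrc5, the transactivator of class I genes, 0.53 ± 0.26, all with overlapping groups. Psmb10, the other inducible subunit, stood at 0.044 ± 0.20, and the chaperones and folding enzymes of class I assembly, Canx, Calr and Pdia3, at -0.26 ± 0.19, -0.089 ± 0.14 and -0.065 ± 0.15. Over the 11 genes, 6 log2 fold changes lay above 0 and 5 below, with a median of 0.044 (0.016 without Pontin cTG replicate 2). Erap1, the peptidase that trims peptides in the endoplasmic reticulum, was the gene of the list with every Pontin cTG heart below every WT heart (596, 588 and 644 against 515, 438 and 543). Groups without overlap were thus 1 higher and 1 lower of the 11 (background 4.7% and 3.63%).

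Class I genes lie in the MHC on chromosome 17, so their neighbours were described as well. Between positions 34134873 and 37794443 of chromosome 17 (the table's coordinates), 16 of 20 tested members had log2 fold changes above 0 (background 50.2%, median 0.29). Of the 76 other tested protein-coding genes in the interval, 61 lay above 0 (median 0.14). Without Pontin cTG replicate 2 these medians were 0.058 and 0.056. Groups without overlap, higher in Pontin cTG hearts, were found for 5 of the 20 members and 6 of the 76 neighbours (background 4.7%).

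All 3 tested class II chains had log2 fold changes below 0. H2-Aa, an alpha chain, had 568, 1090.3 and 638 normalised counts in WT and 527, 777 and 717 in Pontin cTG hearts. H2-Ab1, its beta partner, had 487, 819 and 552 against 502, 602 and 595, and H2-Eb1, the beta chain of the other isotype, 532, 895 and 577 against 545, 745 and 704. For all 3 genes WT replicate 2 was the highest of the 6 hearts and the Pontin cTG hearts lay within the WT range or just below it. Their log2 fold changes were -0.18 ± 0.25, -0.13 ± 0.20 and -0.0065 ± 0.21 (SE), with a median of -0.13 that was 0.16 without WT replicate 2. H2-Ea had no count in any library, and C57BL/6 mice are known not to express it.

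H2-DMa, a subunit of the editor that exchanges class II peptides, had 55.1, 71.8 and 45.8 normalised counts in WT and 52.7, 63.4 and 64.97 in Pontin cTG hearts. It too was highest in WT replicate 2 (log2 fold change 0.07 ± 0.25 (SE)). Of 8 class II regulators and partners outside the name rule, 0 passed the adjusted test. Cd74, the invariant chain that accompanies class II molecules, had 1523, 2159 and 1562 in WT and 1439, 1867 and 1843 in Pontin cTG hearts, in the same order of WT hearts as the class II chains. Ifi30, a lysosomal reductase that opens disulfide bonds of proteins bound for class II loading, was the member with the smallest p among those lower in Pontin cTG hearts, at 61.7, 199 and 95.02 against 65.4, 102 and 58.04. WT replicate 2 alone stood above 102 and the rest overlapped (log2 fold change -0.65 ± 0.41 (SE), unadjusted edgeR p 0.146). Without WT replicate 2 its log2 fold change was -0.060.

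The summed level of the macrophage markers put the WT hearts in the same order as the class II chains. That level over 9 markers, all of them tested, was 5444, 9111 and 5759 normalised counts in WT and 6083, 6834 and 4556 in Pontin cTG hearts, where the class II chains summed to 1587, 2804 and 1767 against 1574, 2124 and 2018. WT replicate 2 led both sums, while the Pontin cTG hearts stood in a different order in each. The sum of the cardiomyocyte markers gave the WT hearts the same order (507538, 636473 and 519136). WT replicate 2 was also highest for the 4 fibroblast markers (9160, 11582 and 7792 in WT, 8572, 10963 and 8328 in Pontin cTG hearts). The 6 dendritic cell markers summed to 356, 359 and 320 in WT and 349, 497 and 317 in Pontin cTG hearts. Log2 fold changes of the macrophage markers were above 0 for 3 of the 9 (C1qa 0.071, C1qb 0.037 and C1qc 0.11). For the other 6 they were below 0, and the median of the 9 was -0.39. At an unadjusted edgeR p under 0.05, 1 of them was lower, the mannose receptor gene Mrc1 (background 1.03% for lower genes). It had 611, 1131 and 534 against 597, 479 and 367 (log2 fold change -0.66 ± 0.29 (SE)). Csf1r, the receptor for macrophage colony-stimulating factor, was the 1 marker of the 9 with every Pontin cTG heart below every WT heart (background 3.63%). It had 753, 1076 and 797 against 693, 747 and 564 (log2 fold change -0.39 ± 0.18 (SE)). Ptprc, the general leukocyte marker, had 129, 324 and 141 against 151, 207 and 115 (log2 fold change -0.32 ± 0.36 (SE)). Without WT replicate 2 the log2 fold changes of Mrc1, Csf1r and Ptprc were -0.25, -0.22 and 0.23, and the median of the 9 markers was -0.13. The classical class I heavy chains summed to 4429, 4707 and 5165 in WT and 5329.8, 6733 and 5863 in Pontin cTG hearts, in which WT replicate 2 lay between the other WT hearts. The 4 endothelial markers summed to 8377, 8531 and 8984 in WT and 8698, 10736 and 7474 in Pontin cTG hearts, with replicate 2 the highest there as well. The part of cell composition in the values of the members was not tested.

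**Figure D3:**
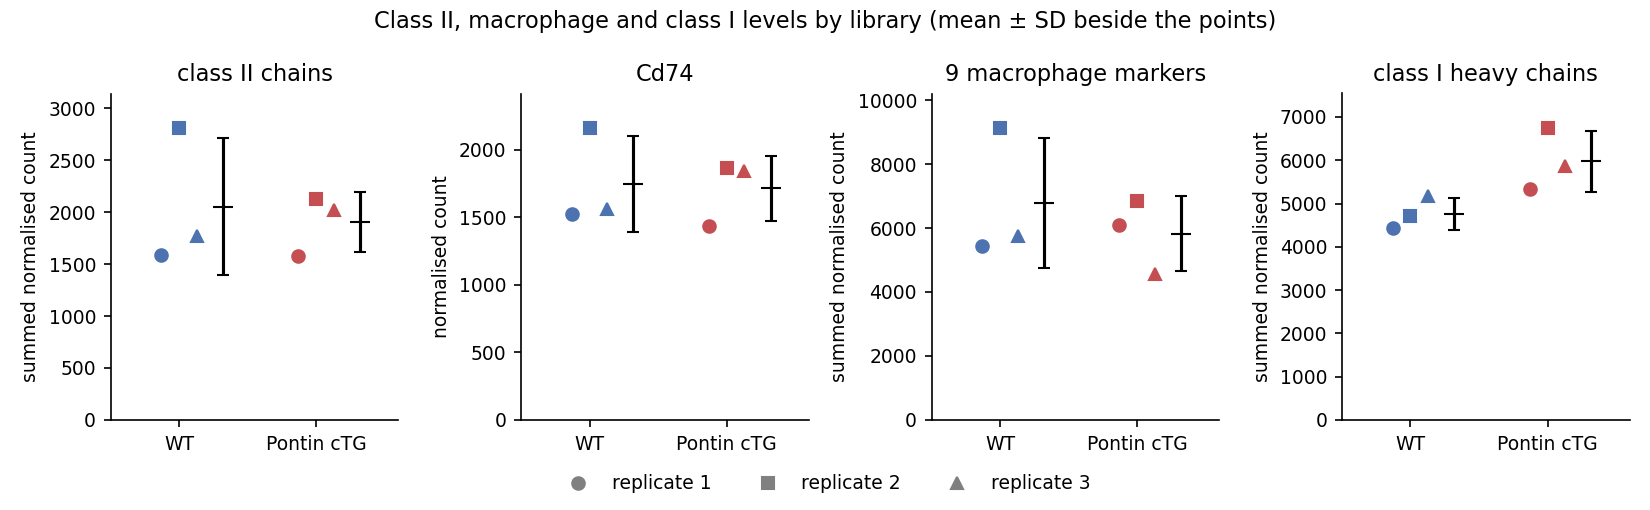
Normalised counts (y axis, from 0) summed over the class II chains, for Cd74, summed over 9 macrophage markers and summed over the classical class I heavy chains, in each WT and Pontin cTG heart (x axis), with marker shapes for replicates and the mean ± SD (n = 3). WT replicate 2 is the highest heart in the 3 panels on the left and lies inside the WT range in the panel of class I heavy chains.

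Interferon ligands were at the limit of detection. Of 10 ligand genes listed, 9 had no count in any library, including Ifnb1 and Ifng, and Ifnk had a single count in Pontin cTG replicate 3. The 6 receptor genes were all tested, with 0 past the adjusted test, 2 log2 fold changes above 0 and a median of -0.057. Of the 10 kinases and feedback genes tested, 0 passed, with 2 above 0, and of 15 tested nucleic acid sensors 0 passed, with 8 above 0.

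Of the STAT factors, 6 of 7 were tested and 2 had log2 fold changes above 0. Stat2, a factor of the type I response, had 237, 294 and 230.3 normalised counts in WT and 242, 425 and 220.03 in Pontin cTG hearts, with Pontin cTG replicate 2 the only transgenic heart above the WT range, and without that library its log2 fold change of 0.22 ± 0.25 (SE) was -0.13. Stat3, the main target of interleukin-6 family receptors, was the most abundant member of the family per length (224 normalised counts per kb), at 2274, 2252 and 2319.6 against 2609, 1607 and 1759. WT hearts were within a narrow range for Stat3 and Pontin cTG hearts lay on either side of it (log2 fold change -0.20 ± 0.19 (SE)).

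All 9 IRF genes were tested, with 5 log2 fold changes above 0 and a median of 0.11 that was -0.093 without Pontin cTG replicate 2. Irf1, an activator of class I promoters and of other interferon-gamma targets, had 242, 285 and 245 normalised counts in WT and 283, 392 and 314 in Pontin cTG hearts. Pontin cTG replicate 1 lay just below the highest WT heart, so the groups overlapped by a narrow margin (log2 fold change 0.36 ± 0.16 (SE), unadjusted edgeR p 0.0502). Irf7, which amplifies interferon production, had 205, 192 and 212 against 199, 331 and 189.7, and Irf9, a DNA-binding partner of STAT proteins, 266, 347 and 299.6 against 307, 420.4 and 257. In both, Pontin cTG replicate 2 was the highest heart and the other transgenic hearts lay within or below the WT range, and without it the log2 fold changes of 0.24 ± 0.22 and 0.11 ± 0.20 (SE) were -0.062 and -0.11. Irf4, a factor of lymphocytes and of some macrophages, had the lowest fold change of the family at low counts (24.2, 34.8 and 22.4 against 9.76, 21.4 and 22.5, log2 fold change -0.59 ± 0.40 (SE)). The IRF-2 binding proteins, matched by name only, had log2 fold changes of 0.0087 to 0.25.

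Among the antiviral effectors, 42 of 59 members were tested, with 28 log2 fold changes above 0 and a median of 0.088. These counts and the Isg group include Isg20l2, which is matched by name only. Without Pontin cTG replicate 2, 13 of the 42 lay above 0 and the median was -0.12, and without replicate 2 of both groups 21 of the 42 did and the median was 0.0035. The Gbp genes, GTPases that act on the vacuoles of intracellular pathogens, gave log2 fold changes above 0 for 7 of 7 tested members (median 0.23), and 4 of 7 lay above 0 without that library. Gbp2 had 233, 296 and 250.4 normalised counts in WT and 237, 326 and 353 in Pontin cTG hearts. Gbp7 had 278, 309.6 and 326 against 288, 390.4 and 381. For both, Pontin cTG replicates 2 and 3 were above every WT heart and replicate 1 was within the WT range (log2 fold changes 0.23 ± 0.18 and 0.21 ± 0.15 (SE)). Gbp4 had the largest fold change of the family, 0.50 ± 0.32 (SE), with 213, 314 and 219 against 181, 461 and 409 and the same arrangement of hearts except that replicate 1 was the lowest of all.

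The Oas genes, which make the oligoadenylate messenger that activates RNase L, were highest in Pontin cTG replicate 2 for 5 of 6 tested genes and lowest in Pontin cTG replicate 3 for 4 of 6. Oas2 had 151, 219 and 181 normalised counts in WT and 168, 409 and 108 in Pontin cTG hearts. Oas1a had 57.3, 60.6 and 55.9 against 72.2, 79.6 and 51.1, and 40.9% of its transcript positions shared a 100-base stretch with Oas1g. Oasl2, a relative with ubiquitin-like repeats, had 163, 268 and 196 against 181, 296 and 168. The family median of 0.16 was -0.34 without Pontin cTG replicate 2.

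Isg15, a ubiquitin-like modifier, had 67.2, 62.8 and 74.9 normalised counts in WT and 71.3, 123 and 72.8 in Pontin cTG hearts. Again a single transgenic heart, replicate 2, lay above the WT range (log2 fold change 0.39 ± 0.26 (SE)), and the log2 fold change was 0.077 without it and 0.022 without replicate 2 of both groups. The Ifit genes, which bind viral RNA, had a median of 0.034 over 6 tested members. Ifit1 had 135, 139 and 118 against 135, 149 and 134 (log2 fold change 0.089 ± 0.16 (SE)), and Ifit3, of which 31.7% of transcript positions were shared with Ifit3b, had 145, 176 and 159 against 131, 190.1 and 165. The groups overlapped for both genes. Ifitm3, a membrane protein that blocks viral fusion and the most abundant effector per length, had 842, 1197 and 959 against 1019, 1438 and 821. Ifitm2 had 336, 369 and 331 against 372, 457 and 313, and in both genes Pontin cTG replicate 2 was highest and replicate 3 lowest. Ifih1, the cytosolic RNA sensor MDA5, had 233, 199 and 198 against 195, 208 and 185, with overlapping groups and a log2 fold change of -0.10 ± 0.14 (SE).

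The Ifi200 genes, a cluster on chromosome 1 that encodes DNA-binding proteins related to the sensor AIM2, lay mostly in the other direction. Of 11 genes 9 were tested, 8 had log2 fold changes below 0 and the median was -0.30. Ifi207 had 183, 288 and 146 normalised counts in WT and 159, 208 and 113 in Pontin cTG hearts. Ifi209 had 24.2, 54.97 and 29.1 against 13.7, 28.3 and 33.8, and Ifi206, close to the filter on low counts, 11.01, 31.4 and 12.3 against 2.93, 13.7 and 11.3. WT replicate 2 was the highest heart for each of these genes and for 7 of the 9, and the other WT hearts lay among the Pontin cTG hearts. Without WT replicate 2 the median was 0.045, with 5 of 9 above 0. The log2 fold changes of Ifi206, Ifi207 and Ifi209 were -0.94 ± 0.61, -0.36 ± 0.29 and -0.51 ± 0.44 (SE), among the 5 smallest p-values of members lower in Pontin cTG hearts and none with an unadjusted p under 0.05 in edgeR.

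**Figure D4:**
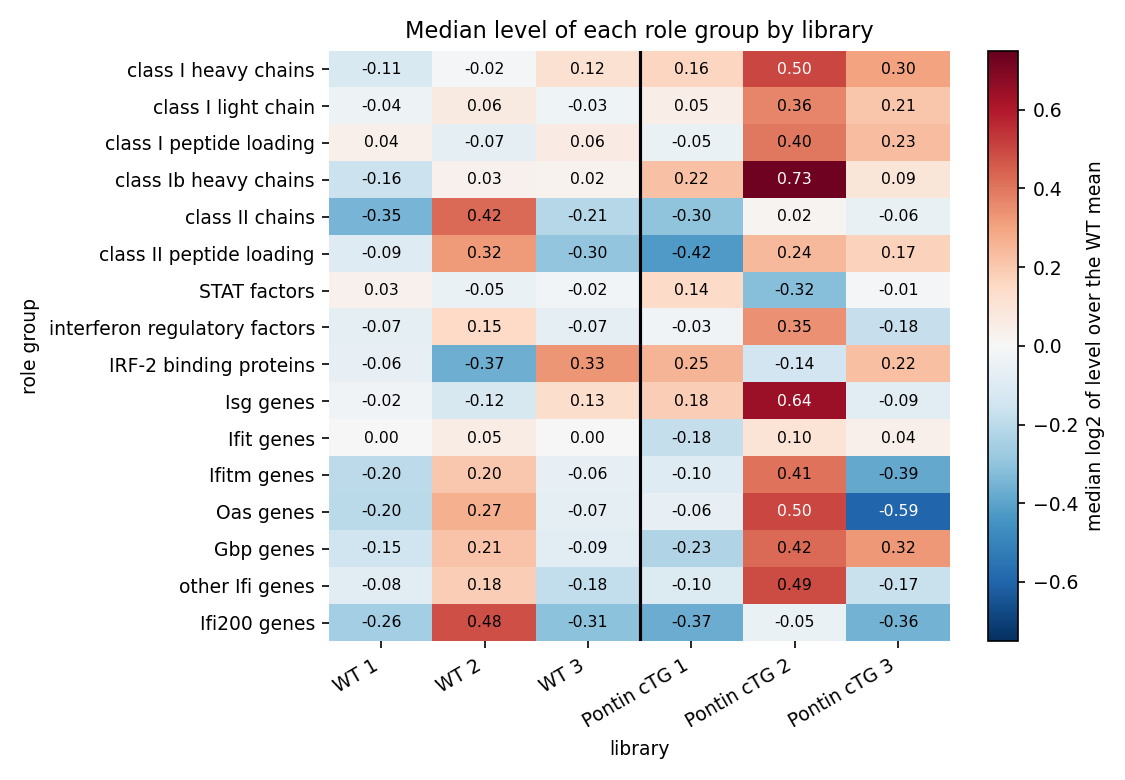
Median over the tested genes of each role group (y axis) of the log2 ratio of the level in a library (x axis) to the WT mean, with colour and printed values on the same scale. Pontin cTG replicate 2 has the highest value for the 4 class I groups and for the interferon regulatory factors and the Isg, Ifit, Ifitm, Oas, Gbp and other Ifi groups, and WT replicate 2 has the highest for the class II groups (0.42 and 0.32) and the Ifi200 genes (0.48).

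Other interferon-stimulated genes outside the name rule were taken as a list of 48. Of the 47 tested, 0 passed the adjusted test, 28 had log2 fold changes above 0, and the median was 0.053, or -0.11 without Pontin cTG replicate 2. An unadjusted edgeR p under 0.05 was found for 2 of the 47, both higher in Pontin cTG hearts (background 1.02% for higher genes). These were Bst2, which encodes tetherin, a protein that holds budding virus at the membrane, and Igtp, an immunity-related GTPase. Bst2 had 252, 274 and 359.95 normalised counts in WT and 358, 488 and 368 in Pontin cTG hearts, where Pontin cTG replicate 1 fell just under the highest WT heart (log2 fold change 0.46 ± 0.18 (SE)). Igtp had 164, 212 and 178 against 223, 221 and 331, with no overlap between groups (log2 fold change 0.48 ± 0.20 (SE)). In the other direction Eif2ak2, the RNA-activated kinase PKR, was the gene of the list with every Pontin cTG heart below every WT heart (269.8, 265 and 241 against 235, 230.3 and 200.1, log2 fold change -0.22 ± 0.13 (SE)). Groups without overlap were 1 higher and 1 lower of the 47 tested genes (background 4.7% and 3.63%).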

How the data were processed

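RNA-seq libraries of 3 Pontin cTG and 3 WT hearts were compared. The authors deposited whole-number counts per gene, not normalised, in a single table. The submitters' processing notes name fastp, HISAT2, featureCounts, DESeq2 and the build GRCm39 (mm39), without versions, whereas the study's methods, in a section on both of its RNA-seq experiments, name Trimmomatic, STAR, mm10 and Gencode M25. None of the members (0 of 121) had the coordinates of GENCODE M21 on GRCm38, so table coordinates (GRCm39 by the notes) and RefSeq promoters (GRCm38.p6) are given apart. The strand setting of the counting is not given in the sources used here. The study's methods mention an outlier left out after principal component analysis without naming it, and all deposited libraries were used here.

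The counts passed through edgeR 4.0.16 in R 4.3.3: low genes were removed (filterByExpr, minimum count 10), TMM factors were computed, and genotype was tested by quasi-likelihood (glmQLFit with robust estimation), with Benjamini-Hochberg adjustment over 13888 genes. The standard error is the size of the log2 fold change divided by the square root of F. Total counts were 12436822 to 16888124 per library, and all pairs of libraries differed by more than sampling noise (chi-square per gene at least 5.62). The labels do not say more of the replicates than their number, so p-values measure the spread between these 3 hearts a group. Scripts were tested on simulated data. Alternatives were DESeq2 1.42.0, DESeq2 size factors, library size alone, no filter, mitochondrial genes left out, limma-voom (limma 3.58.1) with sample weights, the replicate number as a block and each library left out. Leaving out replicate 2 of both groups was added after seeing the data.

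The members and lists were chosen with earlier results of these data known. Genes named are members of defining role (such as B2m, H2-K1, Tap1, Irf1, Isg15), the 5 smallest p-values in each direction, any member past an adjusted p of 0.05, the 5 highest levels per length, other pathway genes with an unadjusted p under 0.05, and Ruvbl1. Of the genes under this rule, 1 is not reported here. Gbp4, Oas2, Ifi211, H2-T10, H2-T24, Psme2b, Psmb8, Psmb9, Psmb10, Canx, Calr, Pdia3, Nlrc5, Erap1, Cd74, Mrc1, Csf1r, C1qa, C1qb, C1qc, Ptprc, Eif2ak2, Ifi47, Tgtp2, Irgm2, Iigp1, Mx1, Rsad2 and Cxcl9 were picked with their values in view. Shared sequence was counted as 100-base stretches of GENCODE M21 transcripts found in another gene.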

Additional observations from a re-analysis of the deposited data

How the results depend on the processing

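No member passed an adjusted p of 0.05 under any of the 14 alternatives, where the smallest adjusted p of a member was 0.855 (limma-voom with sample weights). Of the 82 tested members, groups without overlap were 5 higher and 0 lower under each scaling tried. Over all tested genes the shares were 4.7% and 3.63% under TMM scaling and were not computed under the other scalings. The count at an unadjusted p under 0.05, 3 with all libraries, was 5 under limma-voom (5.72% of all genes) and 2 to 12 with libraries left out (0.847% to 4.91% of all genes), against 2.05% of all genes. The Ifit median was -0.063 under limma-voom. With libraries left out, medians ran from -0.037 to 0.14 for the Ifit genes, 0.022 to 0.48 for the Isg genes, -0.34 to 0.39 for the Oas genes, 0.12 to 0.58 for the class Ib heavy chains and -0.14 to 0.26 for the IRF genes. Directions turned for H2-Ab1 (0.0042), H2-Eb1 (0.066), Irf7 (-0.017) and Ifit3 (-0.069) under limma-voom and for H2-Eb1 (0.023) with library size alone. With libraries left out, log2 fold changes crossed 0 for Tap2 (-0.075 to 0.22), H2-Aa (-0.35 to 0.16), H2-Ab1 (-0.27 to 0.12), H2-Eb1 (-0.14 to 0.26), H2-DMa (-0.062 to 0.26), Stat2 (-0.13 to 0.40), Irf7 (-0.10 to 0.39), Irf9 (-0.11 to 0.26), Ifit3 (-0.11 to 0.16), Ifitm2 (-0.013 to 0.26), Ifitm3 (-0.12 to 0.30) and Oasl2 (-0.26 to 0.26), and the cause was not tested.

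The labels give replicates no more than a number. The departures of WT and Pontin cTG replicates with the same number from the mean of their group correlated at 0.077, 0.43 and 0.19, not all above 0.1, so pairing was not assumed, and whether same-numbered hearts share a batch is not known. With the replicate block, 7 members had an unadjusted p under 0.05 (3.59% of all genes), 0 passed an adjusted p of 0.05, and H2-Eb1 stood at 0.017. Genes such as H2-Q7, Ifi206 and Irf4 had few counts, and with 3 hearts a group an exact permutation test cannot go below 0.1.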

Other observations

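Immunity-related GTPases are interferon-gamma targets, most of them outside the name rule. Tgtp2 had 100.2, 101 and 97.3 normalised counts in WT and 72.2, 116 and 201 in Pontin cTG hearts, and Irgm2 had 395, 458 and 399 against 435, 362 and 595. Pontin cTG replicate 3 was the highest heart for both, as for Igtp, whereas it was the lowest for 4 of the 6 tested Oas genes. Iigp1 had 773, 1281 and 783 against 741, 729.5 and 1309, with WT replicate 2 and Pontin cTG replicate 3 far above the other 4 hearts. Ifi47, a GTPase of this family within the name rule, had 67.2, 104 and 48.1 against 53.7, 89.9 and 80.6, with WT replicate 2 the highest heart. Mx1, an antiviral GTPase, had 11.01, 32.5 and 19.00 against 5.86, 22.3 and 2.60, and Rsad2, the antiviral enzyme viperin, 411, 387 and 421 against 359, 555 and 445. The chemokine Cxcl9 had 67.2, 62.8 and 99.5 against 78.1, 104 and 113. All of these genes but Igtp had overlapping groups, and they were picked with their values in view.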
